A study of Mus musculus with 3 samples.

Results

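The BCL2 family decides whether the mitochondrial outer membrane of a cell stays intact or is opened for apoptosis, and 10 of its genes were examined for H3K4me1 in mouse islets exposed to inflammatory cytokines. The genes were given by name: 3 anti-apoptotic members (Bcl2, Bcl2l1 and Mcl1), 2 pro-apoptotic effectors (Bax and Bak1) and 5 BH3-only members (Bcl2l11, Bbc3, Pmaip1, Bid and Bad). An H3K4me1 enriched region counted for a gene if it overlapped the gene or reached to within 20 kb of any of its annotated transcriptional start sites (TSS). This gave 46 of the 65709 enriched regions in the list, at 10 of 22350 protein-coding genes, and no region counted for more than 1 member. The question was how the regions at the anti-apoptotic members differ from those at the pro-apoptotic members.

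Islets were isolated from CD1 mice (8-12 weeks old by the sample labels; the study's methods give ICR mice of 8-10 weeks), left to recover, and cultured for 4 days with TNFα at 0.16 ng/ml, IFNγ at 1.6 ng/ml and IL-1β at 0.25 ng/ml. Islets of at least 10 mice entered the assay, and DNA from several immunoprecipitations with an antibody to H3K4me1 was pooled into 1 library, so there is no replicate, no error on any value and no test between groups of genes, and members of a family are not replicates of each other. The list names where a region lies on mm9 and carries no height or read count, so the depth is unknown and a missing region may lie below the calling threshold. Untreated islets and RNA were not analysed here, so nothing below says which regions changed with the cytokines. Islets are mixed tissue. A region counted for 7 of 8 endocrine marker genes (not Gcg), 3 of 4 leukocyte markers (not Cd3e), 2 of 3 endothelial markers (not Cdh5) and 2 of 3 acinar and duct markers (not Cela2a), all near the share of protein-coding genes with a region that is given below. Within 20 kb of the first TSS the median covered share was 19.7% for the endocrine markers, 4.48% for leukocyte, 4.0% for endothelial and 8.50% for acinar and duct markers, against 7.50% for all protein-coding genes. A first TSS lay inside a region for 0 of the 8 endocrine markers, against 1 of 4, 2 of 3 and 1 of 3 of the others and 31.1% of protein-coding genes, although 7 of the 8 annotated TSS of Ins2 were inside one. The part of non-endocrine cells in the regions below was not tested.

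Anti-apoptotic BCL2 proteins bind and restrain the effectors Bax and Bak1, which form pores in the outer mitochondrial membrane when released and let cytochrome c out to activate caspases. BH3-only proteins sense stress and either block the anti-apoptotic proteins or activate the effectors. In β-cells this mitochondrial route is one of the ways in which inflammatory cytokines cause cell death. H3K4me1 marks enhancers and the flanks of promoters in an active or poised state, while the nucleosomes closest to an active start site often carry trimethylation in place of monomethylation.

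The promoters of 6 members are shown because they cover the ways in which the first TSS met the mark. Each sequence is taken from mm9, runs along the gene's own strand from 250 bases before the first TSS to 50 bases from the TSS onward, and has in capitals the bases inside an H3K4me1 enriched region. The promoter of Bcl2 (chr1:108610802-108611101, minus strand) lay wholly inside a region, that of Bcl2l1 (chr2:152657415-152657714, minus strand) wholly outside, and that of Mcl1 (chr3:95462393-95462692, plus strand) held the edge of one, with 208 of 300 bases inside. The promoters of Bax (chr7:52722219-52722518, minus strand), Bak1 (chr17:27165905-27166204, minus strand) and Bbc3 (chr7:16894715-16895014, plus strand) lay wholly inside regions.
Bcl2: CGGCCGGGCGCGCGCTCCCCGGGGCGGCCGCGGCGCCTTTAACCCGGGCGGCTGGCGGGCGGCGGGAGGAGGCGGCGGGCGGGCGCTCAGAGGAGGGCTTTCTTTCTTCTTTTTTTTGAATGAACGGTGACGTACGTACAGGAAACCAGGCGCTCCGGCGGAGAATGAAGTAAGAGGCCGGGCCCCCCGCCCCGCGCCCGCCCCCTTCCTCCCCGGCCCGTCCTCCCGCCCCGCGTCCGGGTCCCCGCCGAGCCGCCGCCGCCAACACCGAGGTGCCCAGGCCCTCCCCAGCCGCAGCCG
Bcl2l1: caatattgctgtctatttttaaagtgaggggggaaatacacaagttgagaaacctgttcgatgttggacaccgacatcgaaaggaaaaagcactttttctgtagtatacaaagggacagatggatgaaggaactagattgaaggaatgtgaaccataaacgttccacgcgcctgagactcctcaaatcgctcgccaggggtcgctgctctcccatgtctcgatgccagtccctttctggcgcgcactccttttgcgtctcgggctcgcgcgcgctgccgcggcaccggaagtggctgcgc
Mcl1: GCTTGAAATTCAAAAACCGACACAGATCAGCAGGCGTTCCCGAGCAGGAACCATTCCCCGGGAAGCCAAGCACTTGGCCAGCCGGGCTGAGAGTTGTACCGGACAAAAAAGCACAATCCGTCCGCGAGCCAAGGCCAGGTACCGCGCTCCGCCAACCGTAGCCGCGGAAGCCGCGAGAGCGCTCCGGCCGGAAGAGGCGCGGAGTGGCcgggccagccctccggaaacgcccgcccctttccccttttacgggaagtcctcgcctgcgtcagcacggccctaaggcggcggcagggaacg
Bax: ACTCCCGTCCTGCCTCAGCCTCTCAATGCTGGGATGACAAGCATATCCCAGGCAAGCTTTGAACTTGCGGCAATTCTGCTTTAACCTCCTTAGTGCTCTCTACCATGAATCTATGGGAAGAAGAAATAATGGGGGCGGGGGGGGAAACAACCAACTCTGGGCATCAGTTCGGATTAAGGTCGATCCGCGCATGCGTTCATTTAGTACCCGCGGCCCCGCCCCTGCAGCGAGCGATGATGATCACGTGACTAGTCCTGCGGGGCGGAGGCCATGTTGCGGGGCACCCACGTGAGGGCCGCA
Bak1: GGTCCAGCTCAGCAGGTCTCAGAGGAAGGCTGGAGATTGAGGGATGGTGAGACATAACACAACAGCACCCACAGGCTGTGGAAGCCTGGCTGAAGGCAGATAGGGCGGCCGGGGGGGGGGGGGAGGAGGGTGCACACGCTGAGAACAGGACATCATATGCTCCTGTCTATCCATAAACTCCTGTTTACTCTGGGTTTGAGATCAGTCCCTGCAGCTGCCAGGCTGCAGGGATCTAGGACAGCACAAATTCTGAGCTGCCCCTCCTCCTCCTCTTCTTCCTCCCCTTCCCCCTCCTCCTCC
Bbc3: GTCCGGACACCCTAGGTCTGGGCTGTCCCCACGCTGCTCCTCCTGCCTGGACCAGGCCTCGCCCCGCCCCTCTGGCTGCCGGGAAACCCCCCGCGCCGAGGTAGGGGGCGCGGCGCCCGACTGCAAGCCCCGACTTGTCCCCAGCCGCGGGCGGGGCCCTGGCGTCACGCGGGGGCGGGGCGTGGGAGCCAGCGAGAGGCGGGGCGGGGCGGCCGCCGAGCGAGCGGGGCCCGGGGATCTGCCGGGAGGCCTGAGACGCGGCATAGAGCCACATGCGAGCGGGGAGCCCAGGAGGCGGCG

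All 10 members had at least 1 region, against 76.4% of protein-coding genes. The number per member ran from 2 at Bcl2l1 and Bid to 8 at Bcl2l11, with 4 at Mcl1, Bax and Bbc3, 5 at Bak1 and Pmaip1 and 6 at Bcl2 and Bad. The median over the 10 members was 4.5 regions, against 2 over all protein-coding genes and 3 over the 17066 with a region. Within 20 kb on either side of the first TSS, regions covered a median of 28.6% of the sequence at the members and 7.50% at all protein-coding genes, and Bcl2 was the member with the least (9.0%). The first TSS lay inside a region at 8 of the 10 members, against 31.1% of protein-coding genes. Those genes with a covered first TSS had a median of 13.7% of the same window covered, which the covered members other than Bcl2 (16.0% to 46.5%) also exceeded.

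**Figure D1:**
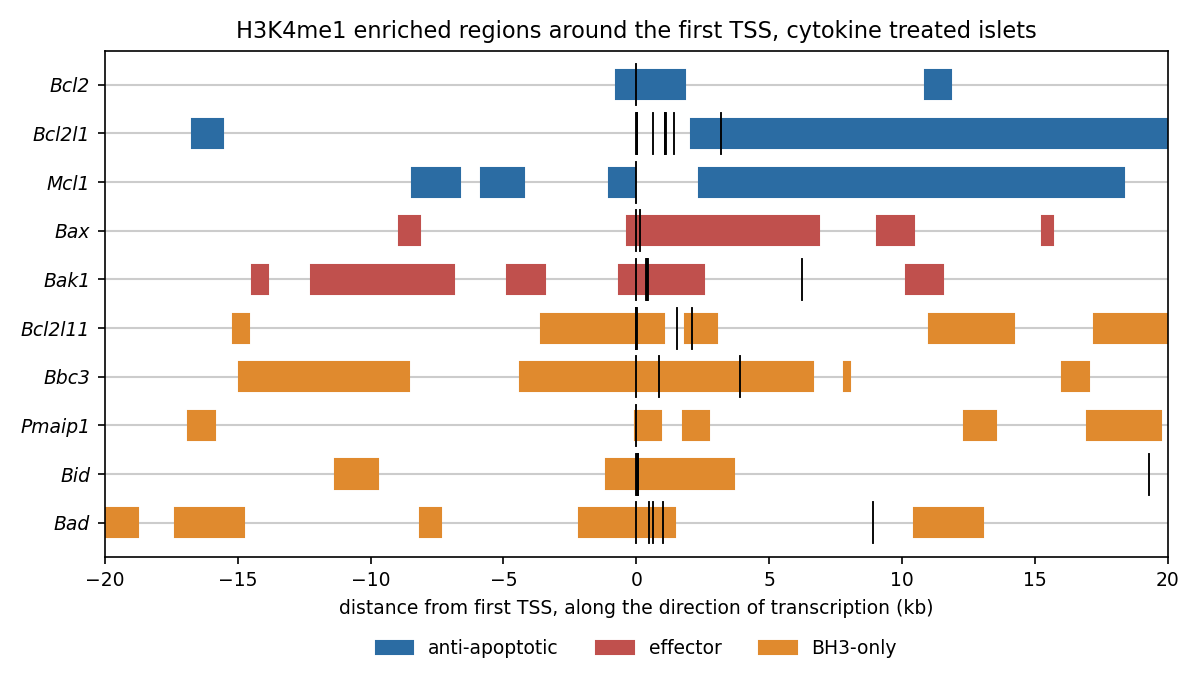
Each row shows 1 member from 20 kb upstream (left) to 20 kb downstream (right) of its first TSS in kb, with enriched regions as coloured boxes and annotated TSS as black lines. The first TSS of all 7 pro-apoptotic members fell inside a box, while those of Bcl2l1 and Mcl1 fell outside, that of Bcl2l1 2064 bp before a box and that of Mcl1 between a box that ends 43 bp upstream and one that begins 2358 bp downstream.

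Bcl2, the founding anti-apoptotic member, spans chr1:108434755-108610851 on the minus strand and is the longest of the genes (176.1 kb). A region of 2.6 kb (chr1:108609001-108611600) covered its only annotated TSS from 749 bp upstream to 1850 bp downstream, taking in UTR and coding exon. Its other 5 regions lay inside the single annotated intron, which is 168.9 kb long, and were narrow (200 to 1000 bp). They left a stretch of 72.6 kb with no region, from 11.9 kb to 84.45 kb downstream of the TSS. Of the gene body, 2.98% was covered, against a median of 4.46% for protein-coding genes over 100 kb. For its length, Bcl2 had 6 regions against a median of 7 in that length class. The 3 regions from 95.1 kb to 123.3 kb into the gene had their closest TSS at D630008O14Rik and not at Bcl2.

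Bcl2l1, which encodes the survival protein Bcl-xL, had only 2 regions, but the wider of them measured 49.2 kb and ranked 12 by width among all 65709 regions. It lay at chr2:152606201-152655400, that is from 2064 bp to 51263 bp downstream of the first TSS, and spanned the longest intron (45.8 kb) together with coding sequence and UTR. The gene lies at chr2:152593052-152657464 on the minus strand, and 76.4% of its body was covered, more than in 99.4% of protein-coding genes of 30 to 100 kb. Of its 10 annotated TSS, 9 lay outside any region, within the first 1418 bp of the gene, and the tenth, 3193 bp downstream, lay inside the wide region. The first TSS missed the 2-kb distance used for promoters by less than the 200 bp grid on which regions were called. Upstream, the nearest region ended 15537 bp away and sat on the start site of the neighbouring gene Tpx2, which encodes a spindle protein.

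Mcl1, a short-lived survival protein, is encoded by a compact gene of 4.46 kb (chr3:95462643-95467099, plus strand) with 1 annotated TSS and 4 regions. The region nearest upstream (chr3:95461601-95462600) ended 43 bp before the TSS, again less than the 200 bp grid, and 2 more lay 4243 to 8442 bp upstream. Downstream, a region of 16.0 kb (chr3:95465001-95481000) began 2358 bp after the TSS, ranked 390 by width, overlapped the UTR at the end of Mcl1 and extended into Adamtsl4, the gene whose TSS was closest to its midpoint. The TSS and the coding sequence of Mcl1 thus lay between marked stretches. Regions covered 51.0% of the sequence within 20 kb of the TSS, the highest value of the 10 members and above 98.0% of protein-coding genes.

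**Figure D2:**
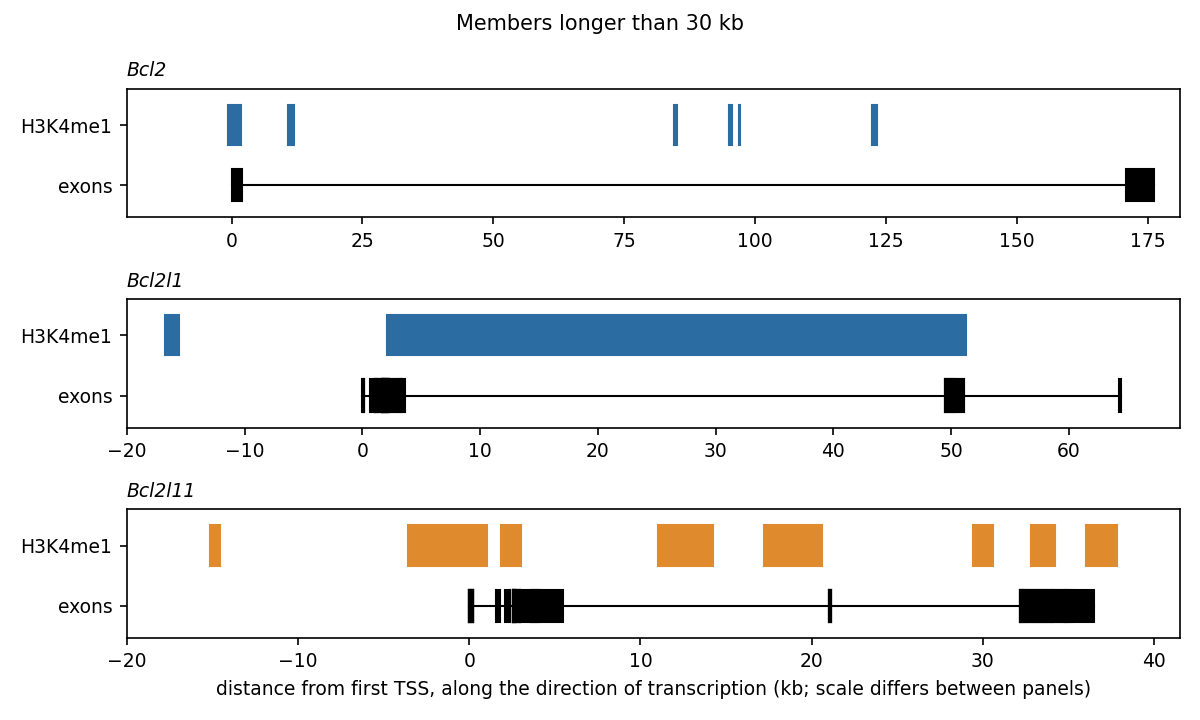
For the 3 members longer than 30 kb, exons of all annotated transcripts are drawn as black boxes on a line for the gene, with enriched regions as coloured boxes above them and distance from the first TSS in kb on each axis. Bcl2 holds 6 small, separate regions, Bcl2l1 a single region of 49.2 kb across most of the gene, and Bcl2l11 7 regions that touch the gene and 1 upstream.

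Both effectors had their promoter inside a region. Bax lies at chr7:52717065-52722268 on the minus strand, and a region of 7.2 kb (chr7:52715401-52722600) covered both annotated TSS and the whole gene from 332 bp upstream to 6867 bp downstream. Among 8856 protein-coding genes under 10 kb, 4.10% were wholly covered. The other 3 regions of Bax, 400 to 1400 bp wide, lay on its neighbours Dhdh and Gys1. At Bak1 (chr17:27156755-27165954, minus strand), a region of 3.2 kb (chr17:27163401-27166600) covered 4 of 5 annotated TSS and overlapped UTR, and 27.8% of the gene was covered in all. A wider region of 5.4 kb lay 6847 to 12246 bp upstream, on the gene Ggnbp1, which also overlaps Bak1 in the annotation, and 40.2% of the 20 kb upstream of Bak1 was covered. All 4 of the other regions of Bak1 had their closest TSS at Ggnbp1.

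Among the BH3-only members, Bcl2l11, which encodes Bim, a broad inhibitor of the anti-apoptotic proteins, held the most regions. Its 8 regions (gene at chr2:127951774-127988283, plus strand) were spread from 15.2 kb upstream to 37.8 kb downstream of the first TSS, and 7 of them touched the gene. The region farthest upstream lay on the neighbouring gene Acoxl. A region of 4.6 kb (chr2:127948201-127952800) covered 4 of the 6 TSS of Bcl2l11 and also overlapped Acoxl, and a second of 1.2 kb covered another TSS. Regions of 3.2 kb and 3.4 kb followed at 11.0 kb and 17.2 kb, both within introns. With 1.42 regions per 10 kb of the sequence searched, Bcl2l11 was above 99.4% of protein-coding genes of 30 to 100 kb.

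Bbc3, which encodes the p53 target Puma, was the third member with a region over 10 kb. That region, of 11.0 kb (chr7:16890601-16901600), covered all 3 annotated TSS and 79.6% of the gene (chr7:16894965-16903554, plus strand) together with a region of 200 bp near its end. Another of 6.4 kb lay 8565 to 14964 bp upstream, outside annotated genes, so that 53.8% of the 20 kb upstream was covered, the most of any member. Regions over 10 kb were thus present at 3 of 10 members (Bcl2l1, Mcl1 and Bbc3), against 6.94% of all protein-coding genes, 3.91% of those under 10 kb and 10.4% of those of 30 to 100 kb. Pmaip1, which encodes Noxa, another p53 target, lies at chr18:66618258-66625204 on the plus strand and had 5 regions of 1.0 to 2.8 kb, none of them over another annotated gene. The region on its TSS (chr18:66618201-66619200) began 57 bp upstream, within the 200 bp grid, and a second lay 1743 bp downstream over coding sequence.

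Bid, whose product links death receptors to the mitochondria once caspases cut it, had 2 regions (gene at chr6:120841948-120866871, minus strand). The wider, of 4.8 kb (chr6:120863201-120868000), covered 4 of 5 TSS from 1129 bp upstream to 3670 bp downstream, and the remaining 21.3 kb of the gene held no region. Bad, a BH3-only protein controlled by survival kinases, lies at chr19:7016351-7026388 on the plus strand in a crowded locus, with the first TSS of 3 other protein-coding genes within 20 kb. A region of 3.6 kb (chr19:7014201-7017800) covered 4 of its 5 TSS and also overlapped Gpr137, whose TSS was 3.5 bp from the midpoint of the region and therefore closer than that of Bad. The other 5 regions of Bad lay on the neighbouring genes Esrra, 1700019N12Rik, Kcnk4 and Plcb3.

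**Figure D3:**
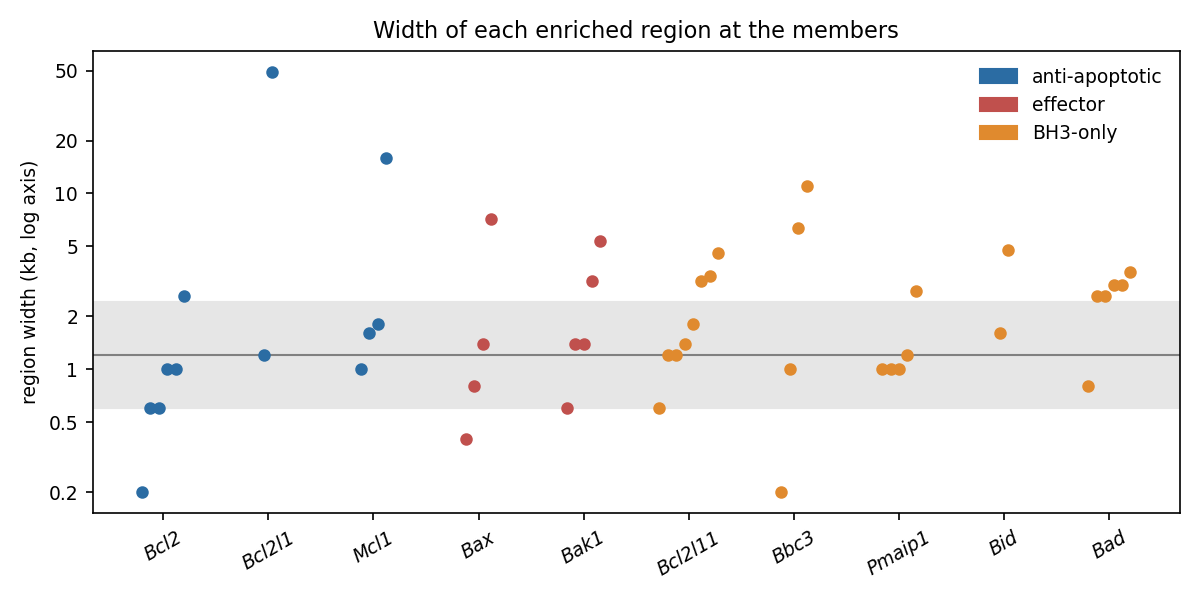
Each point is the width in kb (log axis) of 1 enriched region at the member named below it, coloured by role, with the median and quartiles of all 65709 regions as a grey line and band (1200, 600 and 2400 bp). Of the 46 points, 18 lie above the upper quartile, and single regions of 49.2, 16.0 and 11.0 kb stand above it at Bcl2l1, Mcl1 and Bbc3.

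The neighbourhood sets how far a region can be read as one of the member's own. Assigned by the closest TSS to the region's midpoint, 25 of the 46 regions belonged to the member and 21 to another gene. With TSS of protein-coding genes alone, 29 of the 46 belonged to the member, as did 10 further regions beyond the 20-kb rule, 39 in all. All 5 regions of Pmaip1 and 6 of 8 at Bcl2l11 had the member's TSS closest, as did 3 of 6 at Bcl2, 3 of 4 at Mcl1 and at Bbc3, and 1 each at Bcl2l1, Bid, Bax, Bak1 and Bad. By place, 15 regions overlapped an exon of the member, 8 lay within its introns alone, 15 lay upstream and 8 downstream, and 14 of those outside the member overlapped another protein-coding gene.

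The anti-apoptotic and pro-apoptotic members were set side by side, and with 3 genes against 7 and 1 library no difference was tested. The first TSS was inside a region at 1 of 3 anti-apoptotic members (Bcl2) and at 7 of 7 pro-apoptotic members, where 31.1% of protein-coding genes have it, so the anti-apoptotic count is near the background. The contrast rests on Bcl2l1 and Mcl1, and with edges within 2 kb of the TSS counted as well it was 2 of 3 against 7 of 7, where 58.8% of protein-coding genes meet this looser call. The TSS of Mcl1 lay outside a region by 43 bp and that of Pmaip1 inside by 57 bp. Both distances are less than the 200 bp grid, so neither call is firm. Over every annotated TSS, the counts were 2 of 12 and 23 of 27, against 31.5% of 70018 TSS of protein-coding genes. Many TSS of a gene lie close together and are not separate observations, and 9 of the 10 uncovered TSS of the anti-apoptotic members belonged to Bcl2l1 alone. Counted as genes with any TSS inside a region, it was 2 of 3 and 7 of 7, against 39.1% of protein-coding genes. Here Bcl2l1 counted through 1 TSS, which is left out when only protein-coding transcripts are used. The order of the medians depended on the measure. The median number of regions was 4 (2 to 6) at the anti-apoptotic and 5 (2 to 8) at the pro-apoptotic members, a difference of 1 region that turned around when the distance was 10 kb. Per 10 kb of sequence searched, the medians were 0.306 (0.237 to 1.0) and 1.08 (0.337 to 1.42) regions, against 0.440 for all protein-coding genes. The anti-apoptotic median was the value of Bcl2, and protein-coding genes over 100 kb, its length class, had a median of 0.327. The lowest value was that of Bcl2l1, where the region of 49.2 kb counted as 1. Within their length classes, Bcl2, Bcl2l1 and Mcl1 lay above 47.3%, 27.5% and 86.9% of protein-coding genes. The pro-apoptotic members lay above 34.4% (Bid) to 99.4% (Bcl2l11) of theirs. By covered length within 20 kb of the first TSS the order was the other way, with 47.8% (9.0% to 51.0%) and 27.1% (16.0% to 46.5%), a gap of 20.7 percentage points that narrowed to 10.7 within 10 kb and 10.6 within 50 kb. The highest value, at Mcl1, came mostly from a neighbour's side. Of 20.4 kb of region width there, 16.0 kb was the region that extends into Adamtsl4, whose TSS was closest to its midpoint. On all 3 measures the ranges of the groups overlapped.

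The covered length divided further by side. In the 20 kb downstream of the first TSS, Bcl2l1 and Mcl1 had 89.7% and 80.0% covered, above 99.4% and 98.7% of protein-coding genes, whereas Bcl2 had 14.3%, less than every pro-apoptotic member (18.4% to 43.3%). The median of all protein-coding genes was 7.0%. At Mcl1 the whole downstream share was the region of 16.0 kb that extends into Adamtsl4. In the 20 kb upstream, the anti-apoptotic members had 3.75%, 6.00% and 22.0% and the pro-apoptotic members a median of 20.9% (5.29% to 53.8%), against 3.73% for all protein-coding genes. In all, 7 members had more covered downstream than upstream, and Bak1, Bbc3 and Bad had less. Of the 16663 protein-coding genes with any covered base on either side, 63.1% had more covered downstream, so 7 of 10 is near the background.

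**Figure D4:**
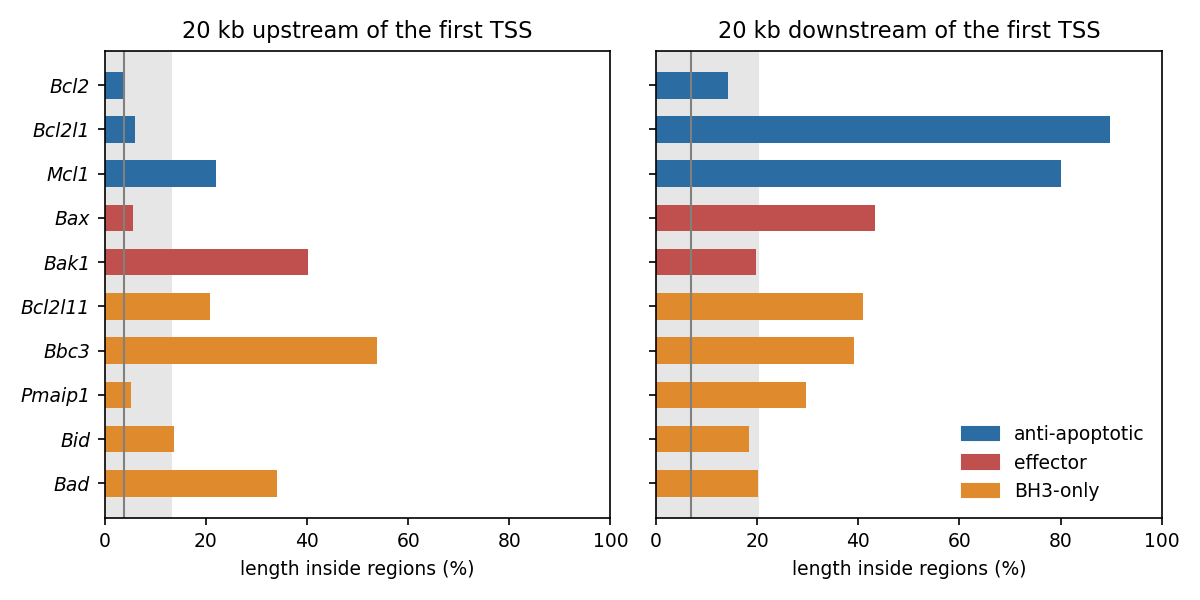
Bars give the percentage of the 20 kb upstream (left) and downstream (right) of each member's first TSS that lay inside enriched regions, and the grey line and band mark the median and quartiles of 22350 protein-coding genes. Bcl2l1 and Mcl1 reach 89.7% and 80.0% downstream, and Bbc3 has the highest value upstream (53.8%).

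The base composition of the promoters was not used in choosing genes or regions, and the median GC content was 65.7% at both the anti-apoptotic and the pro-apoptotic members. Observed CpG dinucleotides relative to the number given by the C and G content were 1.02 to 1.07 at the 3 anti-apoptotic members and had a median of 0.771 at the pro-apoptotic members, where they ran from 0.116 at Bak1 to 1.13 at Pmaip1. The other 6 pro-apoptotic values, up to 0.837 at Bad, lay below those of the anti-apoptotic members, and that of Pmaip1 lay above them. Over all protein-coding genes the median was 0.534, and it was 0.704 for those with the first TSS inside a region and 0.212 for those with no region within 2 kb. Bcl2l1, with 22 CpG in its 300 bases, fell in the latter class at a value of 1.07, outside its quartiles (0.104 to 0.399). It did so by less than the 200 bp grid, with a region 2064 bp downstream. Genes with a region within 2 kb downstream only had a median of 0.721 (quartiles 0.448 to 0.882), and Bcl2l1 lay above these quartiles too. Bak1 had only 3 CpG in 300 bases and a TSS inside a region, below the quartiles of that class (0.493 to 0.860).

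The 300 bases of each promoter were searched on both strands for motifs, 4 of which are reported here: motifs of cytokine signalling, the p53 half-site and the E-box, which bHLH factors bind. The ISRE, here a pair of GAAA words with any 2 bases between them, was found in 0 of 10 members, against 3.79% of 22345 protein-coding promoters. The NF-κB consensus was found at Bbc3 alone (4.73% of promoters), as a pair of overlapping matches from 170 to 160 bases before the TSS, inside its region. The E-box CACGTG occurred at Bax alone (7.79% of promoters), from 9 to 4 bases before the TSS and again from 35 to 40 bases after it. A p53 half-site was found at Bax, from 201 to 192 bases before the TSS, and at Pmaip1, from 174 to 165 bases before it (7.46% of promoters). The match at Bax lay inside its region and that at Pmaip1 outside, since the region there begins 57 bp upstream. These are matches of letters in a short window, and binding was not measured.

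Other genes of the same pathway were described in the same way, and their counts are to be read against the 76.4% of protein-coding genes with a region and the 31.1% with the first TSS inside one. Of 6 further anti-apoptotic relatives, 2 had a region: Bcl2l2, with 4 regions and all 5 TSS inside one, and Bcl2l10, with 2. Bcl2a1a, Bcl2a1b, Bcl2a1c and Bcl2a1d had none, and the median covered share of this list was 0%. The Bcl2a1 genes are near-identical copies, and how reads shared between copies were placed is not given in the sources used here. All 6 further pro-apoptotic relatives (Bok, Bik, Bmf, Hrk, Bnip3 and Bnip3l) had a region, with the first TSS inside one at 5 of them, the most regions at Bnip3 and Bnip3l (4 each) and a median of 18.2% covered.

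Downstream of the mitochondria, 5 of 6 genes of the apoptosome and caspases had a region and 2 of 6 had the first TSS inside one, both near those shares. Apaf1, the scaffold that binds cytochrome c, had none, with the nearest region 37086 bp upstream of its first TSS, and the median of this list was 11.5% covered. The inhibitors of apoptosis and their antagonists had a region at all 6 genes and the first TSS inside one at 4, with 5 regions each at Birc5 and Htra2, and a median of 20.8% covered. The fewest in this list was 1 region, at Xiap on chromosome X. The 5 partners at the outer membrane all had regions, led by Vdac2 with 6, but the first TSS was inside one at 0 of 5, and the median was 10% covered. Of 5 genes of the p53 axis, all had regions and 1 had the first TSS inside one, Trp53 and Mdm2 had 4 regions each, and the median was 23.5% covered. The first TSS was thus covered at 8 of 10 members and at counts from 0 of 5 to 5 of 6 in the other lists. These lists were not tested against each other.

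**Figure D5:**
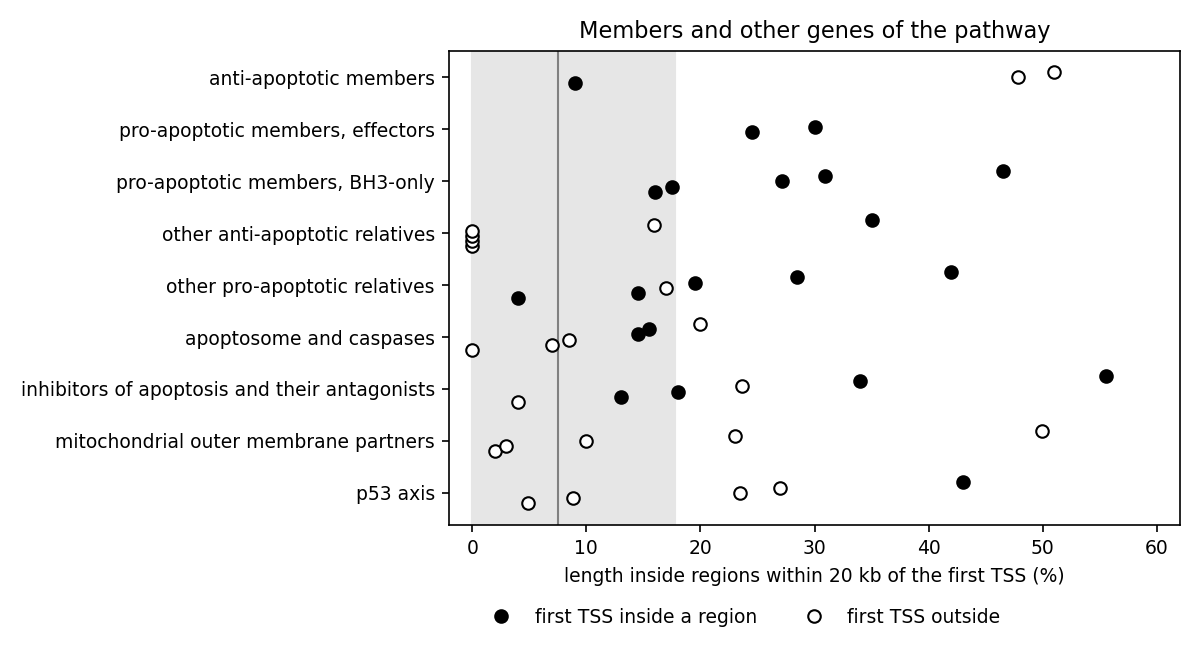
Each point is a gene, placed by the percentage of the sequence within 20 kb of its first TSS that lay inside enriched regions, and filled where the first TSS itself lay inside one. The grey line and band give the median and quartiles of all protein-coding genes (7.50%, 0% and 17.8%), and both anti-apoptotic members at the right, Bcl2l1 and Mcl1, are unfilled.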

How the data were processed

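Per the labels, reads of the pooled H3K4me1 library were mapped to mm9 (Bowtie2 2.2.1 in the submitters' processing notes), and the study's methods give ChromHMM as the tool that identified enriched regions. The deposited list holds positions alone, on a 200 bp grid, and its edges are no finer than that. Whether the filter on weak regions described in the methods was applied to it is not given in the sources used here. The RNA libraries were not used here.

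Positions count from 1. Genes and TSS came from GENCODE M1 on the same build, chromosomes 1 to 19 and X, and the first TSS is the 5′ end of the gene. A region counted for a gene by its nearest edge, and midpoints were used for the closest TSS (within 100 kb). Values for the members stand beside those of all 22350 protein-coding genes, also by gene length (under 10, 10 to 30, 30 to 100 and over 100 kb). With 1 library no test was made. Promoter sequence and motifs were read from the mm9 genome, and motif positions count the TSS as 0; 22345 promoters without unknown bases gave the background. The steps were tested on simulated data. The members, the other gene lists and the alternatives on distance, region width, merging, transcripts and assignment were chosen with earlier results of these data known; the cell type markers were chosen after the list was opened. All 10 members and, of the other lists, the genes with the most regions and those with none are named; some of these genes and 1 of the 5 motifs searched are not reported here. Bcl2l10, Xiap and the cell type markers were added after their values were seen. The sequence of the Pmaip1 promoter is not printed. Python 3.11.15, numpy 2.4.6 and matplotlib 3.10.9 were used.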

Additional observations from a re-analysis of the deposited data

How the results depend on the processing

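With the distance from a TSS at 50 kb in place of 20 kb, the members had 76 regions (46 at 20 kb), and the medians were 7 at the anti-apoptotic and 8 at the pro-apoptotic members. At 10 kb the pro-apoptotic median fell to 3, and the anti-apoptotic median was then higher by 1 region, where it is lower by 1 at 20 kb. With the window around each TSS alone, and not the gene body, the anti-apoptotic median was 2, since 4 regions of Bcl2 dropped out, and the difference was -3 regions. The other 5 alternatives for the number of regions, like 50 kb, kept a difference of -1. The covered share of the anti-apoptotic members, 47.8% within 20 kb, was 39.7% within 10 kb and 31.2% within 50 kb, and that of the pro-apoptotic members was 20.6% within 50 kb. The difference between the medians was 20.7 percentage points within 20 kb, 10.7 within 10 kb and 10.6 within 50 kb, and 20.7 to 22.7 with regions of at least 400 or 1000 bp or merged regions. With TSS of protein-coding genes only, 39 regions had their closest TSS at a member, against 25, and 10 of the 39 lay outside the 46. The number of members with any TSS inside a region was 9, or 8 with coding transcripts alone, which leave out the covered TSS of Bcl2l1, and with the first TSS inside one it was 8. Counting TSS within 2 kb of a region's edge as well, these were 10 and 9, and 62.02% and 58.8% of protein-coding genes meet those calls. The alternatives for the differences and for the first TSS were added after the data were seen. With 1 library no replicate could be left out, and the unknown depth limits every statement that a TSS or gene had no region.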
